A study of Mus musculus with 72 samples.

Results

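The Kelch-like (Klhl) and Kbtbd genes encode substrate adaptors of a ubiquitin ligase, and 46 of the 20239 named genes on the arrays belonged to them. The members are every named probe set whose gene symbol is Klhl or Kbtbd followed by a number, with 1 probe set per symbol. They were divided by what is known of them into 9 members whose transcripts are enriched in striated muscle (Klhl30, Klhl31, Klhl33, Klhl34, Klhl38, Klhl40, Klhl41, Kbtbd12 and Kbtbd13) and 37 other members. Among the other members, 20 have a client protein named in the literature, 5 are known mainly from other tissues (Klhl1, Klhl4, Klhl6, Klhl10 and Klhl14) and 12 fall in neither class.

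In the mKO mice, a Cre recombinase under the Mlc1f promoter, which is active in muscle fibres, acted on floxed Bmal1. The Ctrl mice were littermates without Cre, so what Cre itself may do and what losing Bmal1 does cannot be told apart. All 36 animals were male, C57BL/6 and 5 months old, 18 of each genotype, kept in light from Zeitgeber time (ZT) 0 to ZT12 and in darkness afterwards. The tibialis anterior (TA), a fast muscle, and the soleus (SOL), a slow postural muscle, of the same animals were taken every 4 h from ZT0 to ZT20, with 3 animals per genotype and time, which gave 72 arrays. Values are log2 signals, so a difference of 1 is a change of 2-fold, and a signal is compared only with other signals of the same gene, since probes differ in brightness. A member was called where limma's test gave an adjusted p under 0.05 over all 20239 genes.

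Klhl and Kbtbd proteins share a BTB domain and, in most cases, a set of Kelch repeats. The BTB domain binds the scaffold cullin-3, the Kelch repeats bind a client protein, and the assembled ligase transfers ubiquitin to the client, although some members stabilise their partner instead. In skeletal muscle the family is best known from inherited human myopathies, since variants of KLHL40, KLHL41 and KBTBD13 cause nemaline myopathy, a disease of the thin filament.

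Before the members' results, the arrays were checked against their labels. Array medians lay between 6.67 and 6.84. The mean level of 5 slow fibre markers was 7.13 to 8.00 in TA and 12.9 to 13.3 in SOL, and that of 5 fast fibre markers was 13.1 to 13.4 in TA and 10.6 to 12.4 in SOL, so the muscles matched their labels. The transcript of the targeted gene, Arntl, was at 8.33 ± 0.22 in mKO and 9.22 ± 0.13 in Ctrl in TA at ZT0, and at 7.71 ± 0.27 in mKO and 7.01 ± 0.17 in Ctrl in TA at ZT12 (SD, n = 3). Whether its probes lie in the floxed part is not given, so this does not check the deletion. The array of TA of the Ctrl animal A at ZT0 carried liver transcripts (mean level of 5 liver markers 11.6, against 8.44 on the next highest array). Without that animal 10 members were called for genotype in TA, 7 in SOL and 32 between the muscles, against 10, 7 and 31 with it. The shares of all genes were not taken without that animal. Animal numbers began with BM3 in 23 animals, with BM2* in 7 and with BM2 in 6, and what these series stand for is not stated. They are uneven over time, with no BM3 animal at ZT12, and with BM2 mKO animals set against BM3 Ctrl animals at ZT20. At ZT16 the 3 mKO animals were BM3, against 1 BM3 and 2 BM2* Ctrl animals. A comparison among BM3 animals thus rests on 1 Ctrl animal at that time. A genotype difference among BM2 and BM2* animals can be formed only at ZT8, from 1 mKO and 1 Ctrl animal, and at ZT12, from 3 and 3, with equal weight.

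Promoter sequences from RefSeq (build GRCm38.p6), from 250 bases before to 50 bases after the transcript start, were on hand for 38 of the 46 members. Entries were not on hand for Klhl8, Klhl14, Klhl24, Klhl30, Klhl38, Klhl42, Kbtbd6 and Kbtbd11. The hexamers CACGTG and CAGCTG were searched; each reads the same on both strands. CACGTG, the E-box known to be bound by the clock proteins BMAL1 and CLOCK, was present in the promoters of 3 members (Klhl20, Klhl22 and Klhl28), which is 7.89% of those with an entry, against 8.09% of 27025 genes in the table. CAGCTG, an E-box known to be bound by the MyoD family, was present in 10 members (26.3%), against 18.3% of all genes. The 10 were Klhl4, Klhl5, Klhl6, Klhl10, Klhl13, Klhl21, Klhl34, Klhl35, Klhl40 and Klhl41. The promoters of the 3 muscle-enriched members with CAGCTG are shown, with that of Klhl21, because Klhl40, Klhl34 and Klhl21 differed between genotypes and Klhl41 between muscles. Klhl13, also called for genotype, holds CAGCTG in 2 of its 5 entries and is not printed. Of 9 members called for genotype with an entry, 4 hold CAGCTG and 0 hold CACGTG. Capitals mark CAGCTG, all 4 lie on the plus strand, and the match begins at position -10, -127, -90 and -165 from the start in the order of the lines. A match is a description of the letters and not evidence of binding.
Klhl40 (chr9:121777357-121777656): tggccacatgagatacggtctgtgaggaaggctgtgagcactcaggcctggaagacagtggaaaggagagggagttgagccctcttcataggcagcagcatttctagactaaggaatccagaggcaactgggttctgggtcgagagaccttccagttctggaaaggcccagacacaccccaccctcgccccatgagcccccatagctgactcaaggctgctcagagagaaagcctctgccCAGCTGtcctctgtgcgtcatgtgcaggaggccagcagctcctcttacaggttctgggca
Klhl41 (chr2:69669870-69670169): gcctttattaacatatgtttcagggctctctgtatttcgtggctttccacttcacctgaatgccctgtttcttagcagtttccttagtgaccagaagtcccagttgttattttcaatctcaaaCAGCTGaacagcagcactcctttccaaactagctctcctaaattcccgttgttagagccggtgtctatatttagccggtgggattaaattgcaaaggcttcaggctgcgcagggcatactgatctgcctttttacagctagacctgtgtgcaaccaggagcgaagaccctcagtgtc
Klhl34 (chrX:157818185-157818484): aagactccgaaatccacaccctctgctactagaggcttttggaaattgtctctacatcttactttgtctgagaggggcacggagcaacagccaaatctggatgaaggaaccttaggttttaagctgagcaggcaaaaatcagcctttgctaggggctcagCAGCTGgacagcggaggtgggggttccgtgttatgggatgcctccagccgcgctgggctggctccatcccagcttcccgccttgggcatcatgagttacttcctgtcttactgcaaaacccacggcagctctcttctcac
Klhl21 (chr4:152008641-152008940): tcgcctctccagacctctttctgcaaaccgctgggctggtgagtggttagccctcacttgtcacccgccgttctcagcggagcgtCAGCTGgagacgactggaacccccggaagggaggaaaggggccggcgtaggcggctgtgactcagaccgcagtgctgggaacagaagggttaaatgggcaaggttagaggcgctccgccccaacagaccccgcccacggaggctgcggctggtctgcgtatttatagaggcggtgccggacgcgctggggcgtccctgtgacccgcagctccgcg

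The first comparison asked which members changed their mean level over the day when Bmal1 was lost from fibres. In TA, 10 of the 46 members were called, 6 higher and 4 lower in mKO. This is 21.7% of the members, against 14.8% of all genes (6.76% higher and 8.06% lower). With array weights 16 members were called in TA, 34.8%, against 26.6% of all genes. In SOL, 7 members were called, 5 higher and 2 lower, which is 15.2% of the members against 7.10% of all genes (3.56% higher and 3.54% lower). With array weights 7 were called in SOL as well, 15.2%, against 10.5% of all genes. The mean level of 34 of the 46 members, and of all 9 muscle-enriched ones, was above the median of all genes. The shares of all genes here and below were not matched for level. Of the muscle-enriched members, 4 of 9 were called in TA and 2 of 9 in SOL, all higher in mKO, whereas the other 37 members gave 2 higher and 4 lower in TA, and 3 higher and 2 lower in SOL. The median difference over the 46 members was 0.02 in TA and 0.01 in SOL, close to that of all genes (0.02 in TA and 0.00091 in SOL). Klhl30, Klhl40, Klhl24 and Klhl3 rose and Klhl21 and Klhl23 fell in both muscles, which came from the same animals.

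**Figure D1:**
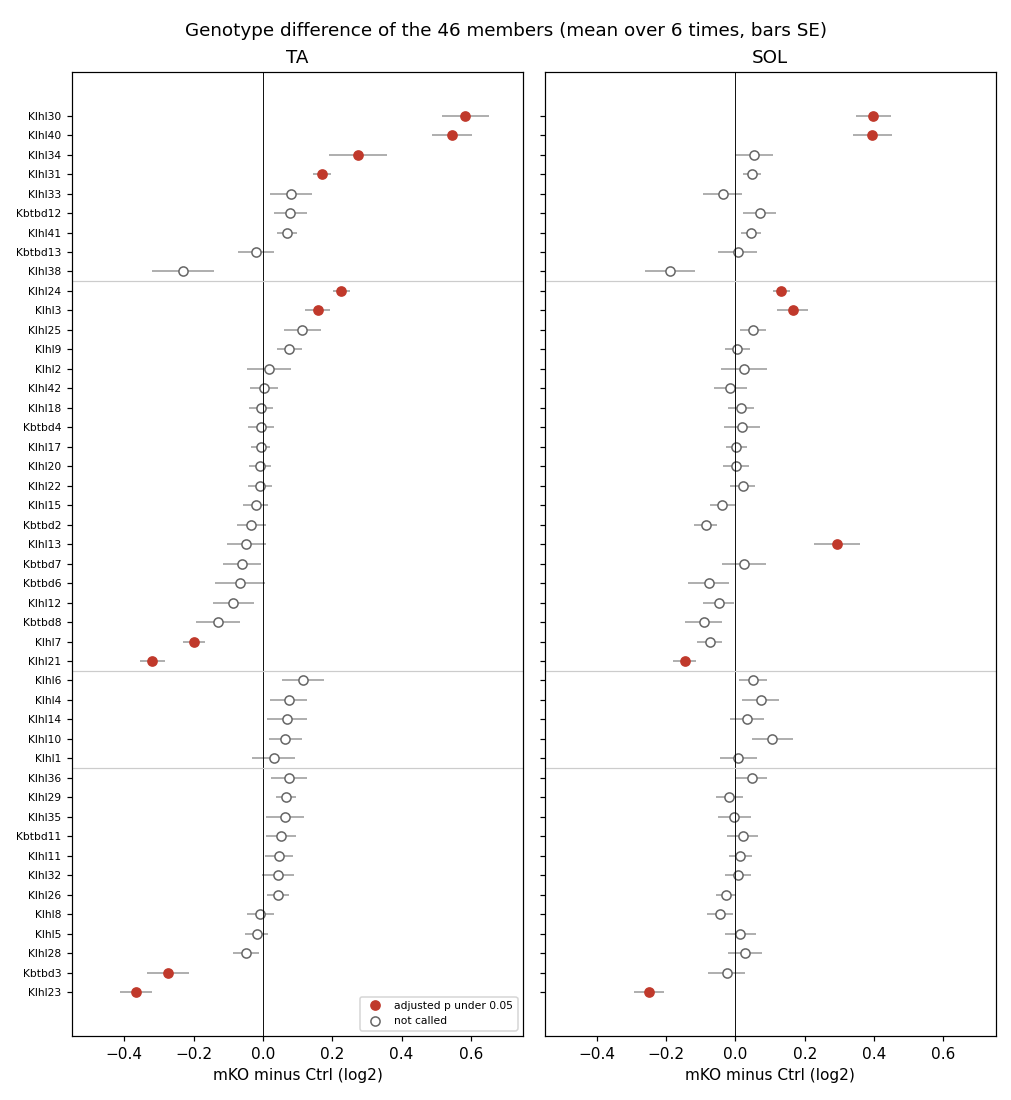
The mKO minus Ctrl difference of each of the 46 members on the log2 scale, averaged over 6 times, in TA (left) and SOL (right); bars are SE and red points passed the test. Grey lines separate, from the top, the muscle-enriched members, those with a named client, those known mainly from other tissues and the rest. Klhl30 and Klhl40 lie farthest to the right in both muscles, at 0.58 and 0.55 in TA, and Klhl23 and Klhl21 lie to the left in both.

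Klhl40, which stabilises nebulin and leiomodin-3 on the thin filament, rose in both muscles. In TA its signal was 8.72 (lowest), 9.03 (median) and 9.34 (highest) in 18 mKO animals, against 8.14, 8.49 and 8.71 in 18 Ctrl animals. The lowest mKO animal was above the highest Ctrl animal, so the genotypes did not overlap at all. The difference was 0.55 ± 0.06 (SE), a 1.46-fold higher level in mKO (limma adjusted p = 2.84e-08). In SOL the signal was 8.92, 9.23 and 9.71 in mKO, against 8.50, 8.89 and 9.22 in Ctrl. Here the ranges overlapped, but at 4 of the 6 times every mKO animal was above every Ctrl animal. The difference in SOL was 0.40 ± 0.06 (1.32-fold, adjusted p = 8.8e-06). It was 0.59 in TA and 0.39 in SOL among BM3 animals alone, and 0.43 and 0.30 among BM2 and BM2* animals.

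Klhl30, a muscle-enriched member with no well-established client, had the greatest difference in TA of the 46 members. In TA it was at 9.65, 9.99 and 10.49 in mKO (lowest, median and highest of 18), against 8.91, 9.47 and 10.05 in Ctrl. The ranges over the whole day overlapped, and within times the 3 mKO animals were all above the 3 Ctrl animals at 4 of 6 times. The difference was 0.58 ± 0.07, or 1.50-fold (adjusted p = 1.56e-07). It was widest at ZT16, where the genotypes also differ in series. There the mKO animals A, B and C were at 10.49, 10.39 and 10.31 and the Ctrl animals at 9.47, 9.38 and 9.48. The difference was narrowest at ZT4, with 9.88, 10.07 and 10.03 in mKO against 9.50, 10.05 and 9.76 in Ctrl, where the animals overlapped. In SOL Klhl30 was at 8.72, 9.02 and 9.45 in mKO, against 8.29, 8.61 and 9.11 in Ctrl. Every mKO animal was above every Ctrl animal at 5 of 6 times in SOL, and the difference was 0.40 ± 0.05 (1.32-fold, adjusted p = 7.91e-07). Among BM3 animals it was 0.53 in TA and 0.34 in SOL, and among BM2 and BM2* animals 0.73 and 0.46.

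Klhl31, whose loss in mice causes a myopathy and which acts on filamin C, rose in TA. Its signal there was 12.12, 12.26 and 12.38 in mKO, against 11.88, 12.07 and 12.26 in Ctrl. At each of the 6 times all 3 mKO animals were above all 3 Ctrl animals, by 0.11 to 0.24 between the time means. The difference was small but even, 0.17 ± 0.03 (1.13-fold, adjusted p = 1.86e-05). In SOL, Klhl31 was at 11.43, 11.62 and 11.73 in mKO and 11.39, 11.55 and 11.69 in Ctrl, a difference of 0.05 ± 0.03 (adjusted p = 0.371). The test of the difference between the muscles gave an adjusted p of 0.0758, so a difference between TA and SOL in this effect was not shown.

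Klhl34 was called in TA, and this call depended on which animals were compared. Its signal was 6.95, 7.99 and 8.40 in mKO, against 7.34, 7.70 and 8.09 in Ctrl, with wide overlap. The difference was 0.27 ± 0.08 (1.21-fold, adjusted p = 0.0245). All 3 mKO animals were above all 3 Ctrl animals at 3 of 6 times, while the time mean of mKO was below that of Ctrl at ZT8 and ZT12. At ZT8 the mKO animals were at 7.92, 7.91 and 6.95, against 7.75, 7.93 and 7.64 in Ctrl. Within BM3 the difference was 0.37 (adjusted p = 0.0142), and within BM2 and BM2* it had the opposite sign, -0.37 ± 0.18 (adjusted p = 0.55). That value averages -0.69 at ZT8, from 1 mKO animal at 6.95 and 1 Ctrl animal at 7.64, and -0.06 at ZT12, so it rests mainly on 1 pair of animals. Without ZT20 it was 0.24, with an adjusted p of 0.115. In SOL it was 0.05 ± 0.05 (adjusted p = 0.729), and the difference between the muscles gave an adjusted p of 0.279.

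The other 5 muscle-enriched members were not called for genotype in either muscle. Klhl41, which like Klhl40 stabilises nebulin, was at 12.40, 12.55 and 12.67 in TA of mKO and 12.37, 12.47 and 12.62 in TA of Ctrl, a difference of 0.07 ± 0.03 (adjusted p = 0.121). In SOL its difference was 0.05 ± 0.03 (adjusted p = 0.491). The pair of nemaline myopathy genes that encode nebulin-stabilising adaptors gave a difference of 0.55 for Klhl40 and of 0.07 for Klhl41 in TA. Kbtbd13, which binds actin filaments, differed by -0.02 ± 0.05 in TA and 0.01 ± 0.06 in SOL. Kbtbd12 differed by 0.08 ± 0.05 in TA and 0.07 ± 0.05 in SOL. Klhl33 differed by 0.08 ± 0.06 in TA and -0.04 ± 0.06 in SOL. Klhl38 had the lowest difference among uncalled members, -0.23 ± 0.09 in TA (adjusted p = 0.0817) and -0.19 ± 0.07 in SOL (adjusted p = 0.134), and its values over the day are given with the rhythms.

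**Figure D2:**
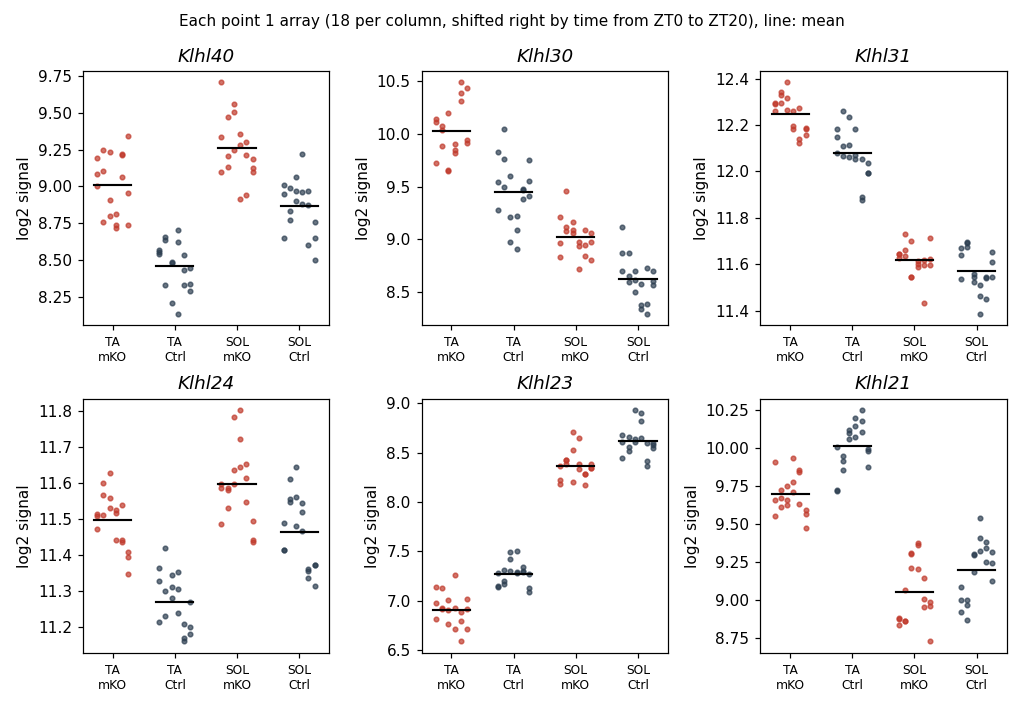
Log2 signal of 6 members on each array, in TA of mKO and Ctrl and in SOL of mKO and Ctrl (18 arrays per column, ordered from ZT0 to ZT20 within a column; the line is the mean). In TA the 18 mKO arrays of Klhl40 (8.72 and above) lie above the 18 Ctrl arrays (8.71 and below), and Klhl23 and Klhl21 lie lower in mKO in both muscles.

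Among the members with named clients, Klhl24, an adaptor for keratin 14 in skin that in humans is tied to skin fragility and cardiomyopathy, rose in both muscles. In TA it was at 11.35, 11.51 and 11.63 in mKO, against 11.16, 11.28 and 11.42 in Ctrl. At all 6 times the 3 mKO animals were above the 3 Ctrl animals, with a difference of 0.23 ± 0.02 (1.17-fold, adjusted p = 3.21e-08). In SOL it was at 11.44, 11.59 and 11.80 in mKO and 11.32, 11.47 and 11.64 in Ctrl, a difference of 0.13 ± 0.03 (adjusted p = 0.000603), with no overlap at 3 of 6 times. The difference in SOL was 0.11 among BM3 animals alone and was not called there (adjusted p = 0.145). Klhl3, which directs WNK kinases to degradation in the kidney, differed by 0.16 ± 0.04 in TA (adjusted p = 0.00267) and 0.16 ± 0.05 in SOL (adjusted p = 0.02). Its animals overlapped at 4 of 6 times in TA and 5 of 6 in SOL, and among BM3 animals it was called in neither muscle (adjusted p = 0.0896 in TA and 0.0546 in SOL).

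Klhl21, which with Klhl9 and Klhl13 ubiquitinates Aurora B in mitosis, fell in both muscles. In TA it was at 9.47, 9.66 and 9.93 in mKO, against 9.71, 10.03 and 10.25 in Ctrl. Every mKO animal was below every Ctrl animal at 5 of the 6 times, the exception being ZT0. The difference was -0.32 ± 0.04 (a ratio of 0.802, adjusted p = 5.59e-08), -0.30 among BM3 animals and -0.35 among BM2 and BM2* animals. In SOL it was at 8.72, 8.996 and 9.37 in mKO, against 8.87, 9.25 and 9.54 in Ctrl, with no overlap at 3 of 6 times and a difference of -0.15 ± 0.03 (adjusted p = 0.00369). In SOL this call was lost among BM3 animals (-0.11, adjusted p = 0.284) and without ZT20 (-0.11, adjusted p = 0.0832). Klhl7, an adaptor known from inherited retinal degeneration in humans, fell in TA. It was at 9.08, 9.29 and 9.37 there in mKO, against 9.34, 9.46 and 9.69 in Ctrl, and did not overlap at 4 of 6 times. The difference was -0.20 ± 0.03 in TA (adjusted p = 2.32e-05) and -0.07 ± 0.04 in SOL (adjusted p = 0.27), and the difference between muscles gave an adjusted p of 0.213.

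Klhl23, for which no client is well established, fell in both muscles. In TA it was at 6.59, 6.92 and 7.26 in mKO, against 7.09, 7.28 and 7.51 in Ctrl. At all 6 times the 3 mKO animals were below the 3 Ctrl animals, with a difference of -0.37 ± 0.05 (a ratio of 0.776, adjusted p = 4.85e-07). In SOL it was at 8.18, 8.36 and 8.71 in mKO and 8.37, 8.60 and 8.93 in Ctrl, with no overlap at 5 of 6 times. The difference in SOL was -0.25 ± 0.04 (a ratio of 0.842, adjusted p = 0.00012). Within BM3 it was -0.40 in TA and -0.19 in SOL, and within BM2 and BM2* -0.35 and -0.37.

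Klhl13, called in SOL, and Kbtbd3, called in TA, are described with the second comparison. The other remaining members were not called for genotype in either muscle. In TA 36 members were not called, with differences between -0.23 for Klhl38 and 0.12 for Klhl6, and in SOL 39, between -0.19 for Klhl38 and 0.11 for Klhl10. They included all 5 members known mainly from other tissues, among them Klhl6, a regulator of B lymphocytes, and Klhl10, needed for spermatid maturation. They also included Klhl9 and Klhl12, an adaptor of the vesicle coat protein SEC31, with differences in TA of 0.08 ± 0.04 and -0.09 ± 0.06. Klhl2, Klhl15, Klhl17, Klhl18, Klhl20, Klhl22, Klhl42 and Kbtbd4 lay between -0.02 and 0.02 in TA, with SE of 0.03 to 0.06. Kbtbd2, which limits the p85 subunit of PI3-kinase, gave -0.09 ± 0.03 in SOL (adjusted p = 0.144). The TIAM1 adaptors Kbtbd6 and Kbtbd7, and Kbtbd8, known from neural crest formation, gave -0.07, -0.06 and -0.13 in TA. Klhl25, an adaptor for the translation repressor 4E-BP1, gave 0.11 ± 0.05 (adjusted p = 0.17). The widest 95% interval of an uncalled member reached 0.17 to either side of its value in TA and 0.14 in SOL.

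The fibre markers moved with genotype in SOL, where 3 of 5 slow fibre markers were lower and, of 5 fast fibre markers, 1 was higher and 1 lower. In TA 1 slow and 1 fast marker were higher. The mean level of the 5 slow markers in SOL was 12.9 to 13.1 in mKO, against 13.0 to 13.3 in Ctrl, and that of the 5 fast markers was 10.6 to 12.4 in mKO, against 10.7 to 12.2 in Ctrl. Markers of endothelium, fibroblasts and tendon, macrophages, adipocytes and B lymphocytes gave 1, 1, 0, 0 and 0 called genes in SOL, and 0, 0, 0, 1 and 0 in TA. The part of these markers in the members' differences was not tested. In whole muscle, fewer cells of a type and less RNA per cell cannot be told apart.

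A second comparison asked where loss of Bmal1 acted differently in fast and slow muscle. The test used each animal's own TA minus SOL value, and 2 members were called, both lower, which is 4.35% of the members against 2.71% of all genes (1.20% higher and 1.52% lower). With array weights 4 were called, 8.70%, against 5.93% of all genes. Klhl13 was at 7.96, 8.32 and 8.62 in SOL of mKO, against 7.72, 7.96 and 8.34 in SOL of Ctrl. It was higher in mKO there, by 0.29 ± 0.07 (1.22-fold, adjusted p = 0.00364), with no overlap between the animals at 2 of 6 times, and was not called among BM3 animals (0.28, adjusted p = 0.149). In TA it was at 6.84, 7.27 and 7.56 in mKO and 6.82, 7.33 and 7.66 in Ctrl, a difference of -0.05 ± 0.06 (adjusted p = 0.634). The effect in TA was thus 0.34 ± 0.09 below that in SOL (log2 difference -0.34, adjusted p = 0.0207). Kbtbd3, which has no well-established client, was at 5.26, 5.58 and 5.85 in TA of mKO, against 5.35, 5.87 and 6.09 in TA of Ctrl. It fell in TA by 0.27 on the log2 scale (difference -0.27 ± 0.06, adjusted p = 0.00159), with no overlap at 3 of 6 times. In SOL it was at 5.28, 5.64 and 6.11 in mKO, against 5.42, 5.69 and 5.92 in Ctrl, and differed by -0.02 ± 0.05 (adjusted p = 0.901). The effects differed by -0.25 ± 0.07 (adjusted p = 0.0341). The signal of Kbtbd3 was low, below the array medians of 6.67 to 6.84 on every array. The check on genes above the median level therefore did not cover Kbtbd3.

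Neither muscle-dependent effect held throughout. With the identification series as a term the adjusted p was 0.0596 for Klhl13 and 0.113 for Kbtbd3. Among BM3 animals the differences were -0.42 (adjusted p = 0.0893) and -0.25 (adjusted p = 0.471), and among BM2 and BM2* animals 0.14 ± 0.19 and -0.17 ± 0.17 (adjusted p = 1 for both). For Klhl13 the positive value rests on the single pair at ZT8, where mKO minus Ctrl was 0.53 in TA and 0.07 in SOL; at ZT12, with 3 animals each, it was 0.03 in TA and 0.22 in SOL. The Kbtbd3 call was lost in 18 of the 36 refits that left out 1 animal, among them the animal whose TA array carried liver transcripts, with adjusted p up to 0.0678; that of Klhl13 was lost in 0 of them (up to 0.0421).

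**Figure D3:**
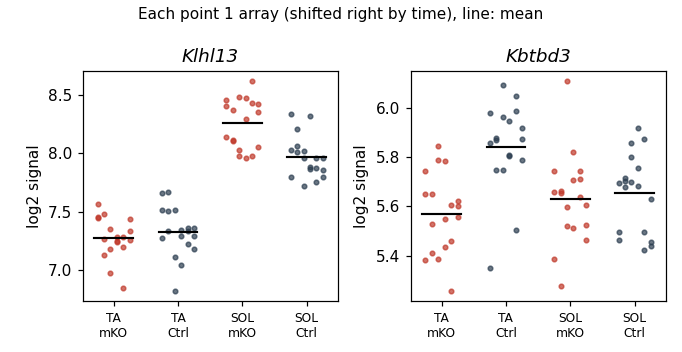
Log2 signal of Klhl13 (left) and Kbtbd3 (right) on each array in TA of mKO and Ctrl and in SOL of mKO and Ctrl; the line is the mean of 18 arrays. Klhl13 averages 8.26 in mKO and 7.97 in Ctrl in SOL, and Kbtbd3 averages 5.57 in mKO and 5.84 in Ctrl in TA, while the other muscle of each shows means closer together.

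The third comparison set TA against SOL of the same animals over both genotypes. Of the 46 members, 31 were called, 17 higher and 14 lower in TA, which is 67.4% of the members against 56.8% of all genes (32.8% higher and 23.9% lower). The muscle-enriched members differed most often, 8 of 9, with 5 higher and 3 lower in TA, and 23 of the other 37 were called, 12 higher and 11 lower. The median difference in size was 0.40 over the muscle-enriched members and 0.10 over the others, against 0.10 over all genes. Restricted to either BM3 or BM2 and BM2* animals, all 31 called members kept their sign. Both subsets are parts of the animals that gave the calls, so this is not independent support. Of the 46 members, 30 were called among BM3 animals and 23 among BM2 and BM2* animals, and the shares of all genes were not taken. Among BM2 and BM2* animals Klhl11 differed by only -0.0003 (limma adjusted p = 0.997).

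**Figure D4:**
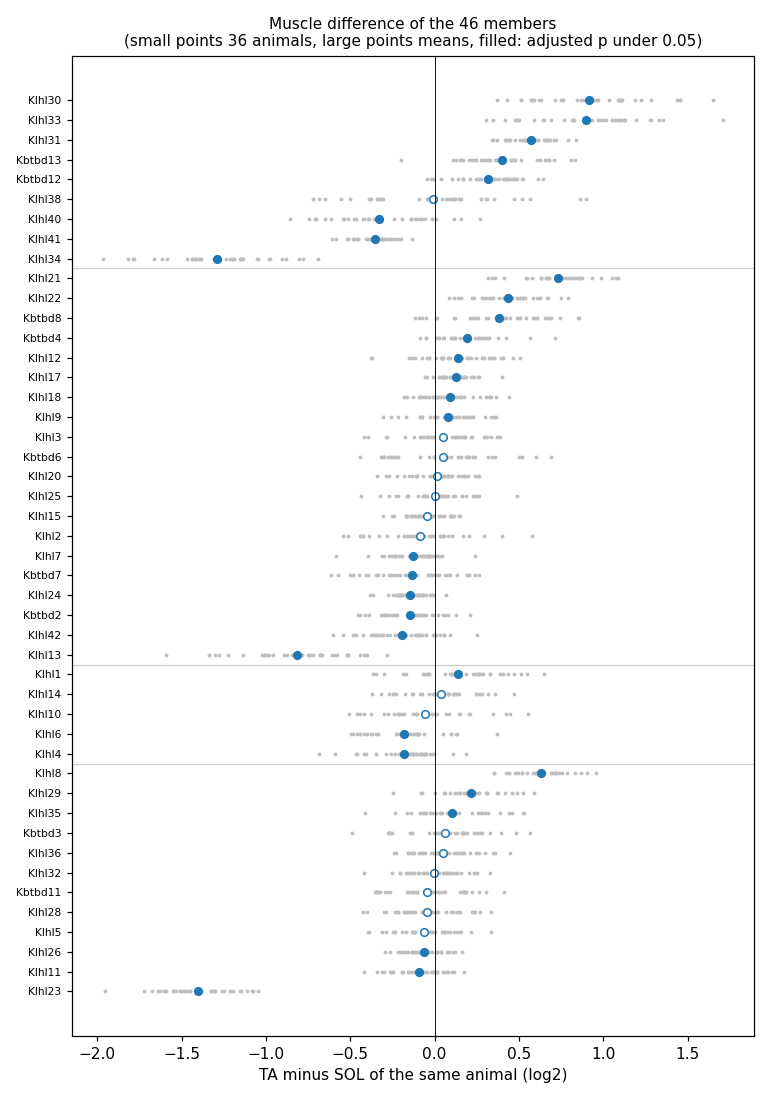
TA minus SOL on the log2 scale for the 46 members; small points are the 36 animals, large points their means, filled where the test was passed. Grey lines separate the same 4 classes, from the muscle-enriched members at the top. Klhl30 and Klhl33 lie at 0.92 and 0.90, Klhl23 and Klhl34 at -1.40 and -1.29, and their 36 animals all lie on one side of 0.

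Klhl23 had the greatest muscle difference of the family, in the direction of SOL. It was at 6.59, 7.13 and 7.51 in TA (lowest, median and highest of 36), against 8.18, 8.49 and 8.93 in SOL. Each of the 36 TA arrays was below each of the SOL arrays, and the difference was -1.40 ± 0.03 (a ratio of 0.379, adjusted p = 2.99e-25). Klhl34 likewise was at 6.95, 7.89 and 8.40 in TA, against 8.77, 9.12 and 9.41 in SOL, with no overlap and a difference of -1.29 ± 0.05 (adjusted p = 2.82e-21). Klhl13 was lower in TA in all 36 animals, with a difference of -0.81 ± 0.04 (adjusted p = 8.11e-17).

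Of the nemaline myopathy genes, Klhl41 and Klhl40 were lower and Kbtbd13 higher in TA. Klhl41 was at 12.37, 12.49 and 12.67 in TA, against 12.70, 12.87 and 13.03 in SOL, which do not overlap. The difference was -0.36 ± 0.02 (adjusted p = 1.13e-15) and was negative in 36 of 36 animals. Klhl40 differed by -0.33 ± 0.05 (adjusted p = 2.51e-07) and was lower in TA in 32 of 36 animals. Kbtbd13 was at 7.36, 7.77 and 8.12 in TA and 6.95, 7.35 and 7.67 in SOL, a difference of 0.40 ± 0.04 (adjusted p = 5.27e-10), positive in 35 of 36 animals.

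Klhl30, Klhl33, Klhl31 and Kbtbd12 were higher in TA. Klhl31 was at 11.88, 12.18 and 12.38 in TA, against 11.39, 11.61 and 11.73 in SOL, with no overlap and a difference of 0.57 ± 0.02 (adjusted p = 3.32e-22). Klhl30 was higher in TA in all 36 animals, by 0.37 to 1.65, with a mean difference of 0.92 ± 0.04 (1.89-fold, adjusted p = 2.66e-18). Klhl33 was higher in TA in all 36 animals too, by 0.90 ± 0.04 (1.86-fold, adjusted p = 2.66e-18). Kbtbd12 was higher by 0.32 ± 0.03 (adjusted p = 4.31e-10), in 33 of 36 animals. Klhl38 alone among the muscle-enriched members was not called, with a difference of -0.01 ± 0.04 (adjusted p = 0.846) and 19 of 36 animals higher in TA.

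Outside the muscle-enriched members, Klhl21 was at 9.47, 9.86 and 10.25 in TA, against 8.72, 9.13 and 9.54 in SOL, a difference of 0.73 ± 0.02 (1.66-fold, adjusted p = 1.44e-21). Klhl8 was at 7.79, 8.01 and 8.34 in TA and 7.19, 7.39 and 7.71 in SOL, which do not overlap, with a difference of 0.63 ± 0.02 (adjusted p = 5.16e-20). Both were higher in TA in all 36 animals, as was Klhl22, an adaptor for DEPDC5 in amino acid sensing, by 0.43 ± 0.03. Kbtbd8 (0.38), Klhl29 (0.22), Kbtbd4 (0.19), Klhl1 (0.14), Klhl12 (0.14), Klhl17 (0.13), Klhl35 (0.10), Klhl18 (0.09) and Klhl9 (0.08) were also higher in TA. The lower members were Klhl42 (-0.19), Klhl4 (-0.18), Klhl6 (-0.18), Kbtbd2 (-0.15), Klhl24 (-0.15), Kbtbd7 (-0.14), Klhl7 (-0.13), Klhl11 (-0.09) and Klhl26 (-0.06). Of these, Kbtbd8, Klhl1 and Klhl6 had signals below the array medians of 6.67 to 6.84 on every array, and Klhl4 on every TA array. The 15 members not called lay between -0.08 for Klhl2 and 0.06 for Kbtbd3 and also included Klhl3, Klhl5, Klhl10, Klhl14, Klhl15, Klhl20, Klhl25, Klhl28, Klhl32, Klhl36, Klhl38, Kbtbd6 and Kbtbd11.

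Markers of other cells differed between the muscles as well. All 5 adipocyte markers and all 5 endothelial markers were lower in TA, with median differences of -0.71 and -0.22. The mean level of the adipocyte markers was 6.19 to 6.70 on TA arrays, against 6.47 to 8.13 on SOL arrays. Of the fibroblast and tendon markers, 2 were lower and 1 higher in TA, and of the macrophage markers 2 were lower. Their part in the members' differences was not tested.

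The fourth comparison concerned daily rhythm, fitted as a cosine wave of 24 h; the amplitude is the distance from the mean to the peak in log2 units. In SOL, 5 members were called rhythmic in mKO, against 8 in Ctrl, which is 10.9% and 17.4% of the members. Of all genes, 5.68% were called in SOL of mKO and 6.05% in SOL of Ctrl. In TA, 1 member was called in mKO and 2 in Ctrl, 2.17% and 4.35% of the members, against 1.76% of all genes in TA of mKO and 2.70% in TA of Ctrl. The test of the difference in rhythm between genotypes called 0 members in either muscle with limma (5 in SOL and 3 in TA had an unadjusted p under 0.05), and 0 with a separate term for each time. With array weights the count in TA of Ctrl was 5, 10.9% of the members against 3.69% of all genes. Without the Ctrl animal A of ZT0 it was 4, but the share of all genes was not taken there. That count is thus not a result about the members alone. Over all genes the test of the difference in rhythm between genotypes called 0.0395% in SOL and 0.104% in TA. Whether rhythms differed between the muscles was not tested.

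Klhl38, a muscle-enriched member with no well-established client, was rhythmic in both muscles and both genotypes. In SOL of mKO its mean was 10.31, 10.73, 11.27, 11.14, 9.59 and 9.51 from ZT0 to ZT20 in steps of 4 h. In SOL of Ctrl it was 10.18, 10.88, 11.17, 11.36, 10.31 and 9.77. The highest time mean was 3.38-fold the lowest in mKO and 2.99-fold in Ctrl. At ZT16 the 3 mKO animals were at 9.64, 9.46 and 9.67, below the 3 Ctrl animals at 10.26, 10.06 and 10.62. The genotypes also differ in series at that time. In both genotypes the level was high late in the light phase and low late in the dark phase. The amplitude was 0.92 in mKO, with a peak at ZT7.6 (adjusted p = 6.19e-08), and 0.78 in Ctrl, with a peak at ZT8.9 (adjusted p = 1.02e-06). The difference in rhythm was not called (adjusted p = 0.953).

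In TA, Klhl38 had means of 10.42, 10.81, 11.08, 10.65, 9.49 and 9.89 in mKO, against 10.75, 10.99, 10.94, 10.79, 10.07 and 10.20 in Ctrl. The range over the day was 3.00-fold in mKO and 1.90-fold in Ctrl. At ZT16 the mKO animals were at 8.95, 9.81 and 9.72 and the Ctrl animals at 10.17, 9.75 and 10.28, which overlap. The amplitude was 0.73 in mKO (peak at ZT6.3, adjusted p = 3.58e-05), against 0.48 in Ctrl (peak at ZT5.9, adjusted p = 0.00543). The test of the difference between genotypes gave an adjusted p of 0.999. Among BM3 animals, whose mKO group covers 4 times and Ctrl group 5, Klhl38 remained called in all 4 groups, with amplitudes of 0.81 and 0.67 in SOL and 0.74 and 0.47 in TA of mKO and Ctrl. The BM2 and BM2* animals cover too few times per genotype for a fit of their own.

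Klhl33, muscle-enriched and with no well-established client, was rhythmic in SOL of both genotypes. Its mean was 7.84, 8.13, 8.58, 8.93, 8.62 and 8.29 in mKO over the 6 times, against 8.12, 7.99, 8.24, 8.86, 8.75 and 8.65 in Ctrl. At ZT12 the mKO animals were at 8.85, 9.19 and 8.74 and the Ctrl animals at 8.82, 8.76 and 9.002, while at ZT20 all 3 mKO animals, at 8.40, 8.16 and 8.30, were below the Ctrl animals at 8.69, 8.78 and 8.49. The amplitude was 0.49 in mKO, peaking at ZT12.4 (adjusted p = 1.07e-06), and 0.46 in Ctrl, peaking at ZT15.2 (adjusted p = 3.08e-06). This shift between genotypes had an unadjusted p of 0.000821 and did not pass the adjustment over all genes (adjusted p = 0.471). At ZT20 the genotypes also differ in series. Among BM3 animals Klhl33 remained called in SOL of mKO (0.58, adjusted p = 0.000204) and of Ctrl (0.44, adjusted p = 0.00152). In TA Klhl33 was not called (amplitude 0.16 in mKO and 0.25 in Ctrl, adjusted p = 0.493 and 0.0698).

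**Figure D5:**
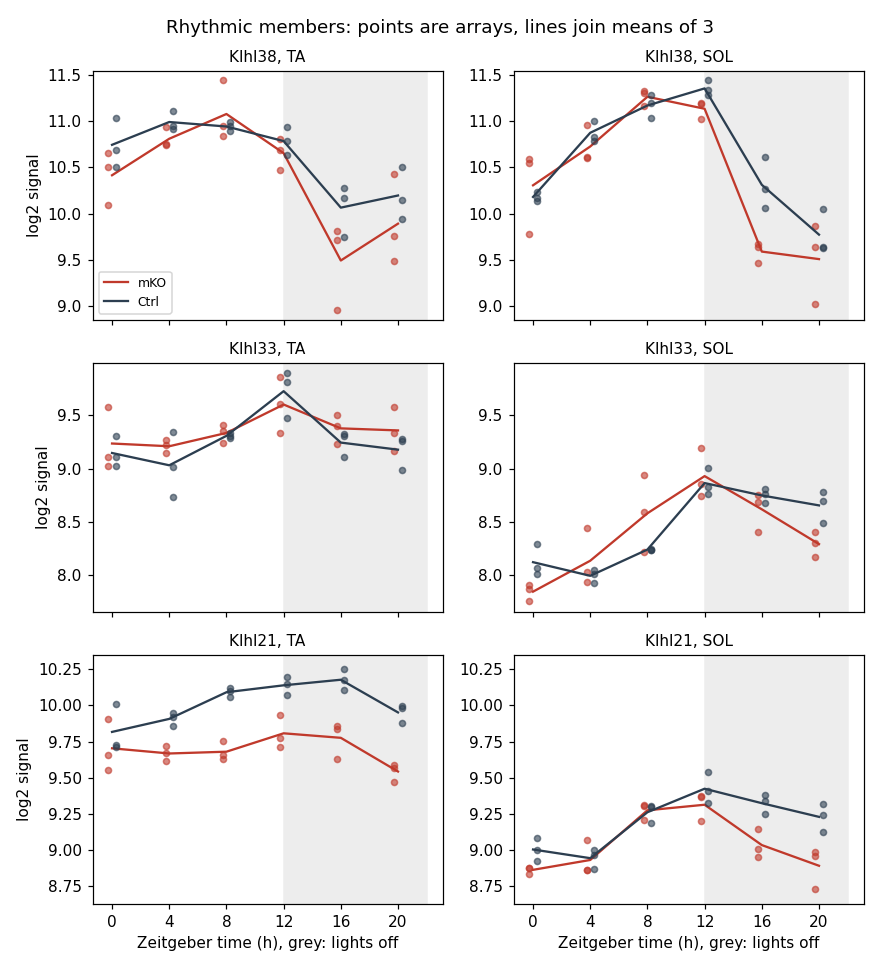
Log2 signal of Klhl38, Klhl33 and Klhl21 by Zeitgeber time in TA (left) and SOL (right); points are arrays, lines join the means of 3 animals, and grey marks lights off. Klhl38 is high around ZT8 (11.27 in mKO and 11.17 in Ctrl in SOL) and low at ZT16 and ZT20 in both muscles, Klhl33 peaks at ZT12 in both (8.93 in mKO and 8.86 in Ctrl in SOL), and Klhl21 lies lower in mKO than in Ctrl at all 6 times in TA.

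Klhl21 was rhythmic in SOL of mKO (amplitude 0.25, peak at ZT10.7, adjusted p = 3.06e-05) and of Ctrl (0.23, peak at ZT13.7, adjusted p = 5.52e-05). Its means in SOL ran 8.86, 8.93, 9.27, 9.31, 9.03 and 8.89 in mKO, against 9.001, 8.94, 9.26, 9.42, 9.32 and 9.23 in Ctrl. All 3 mKO animals were below all 3 Ctrl animals at ZT0, ZT16 and ZT20, and the genotypes overlapped from ZT4 to ZT12. At ZT16 and ZT20 the genotypes also differ in series. The test of the difference in rhythm gave an unadjusted p of 0.00257 and an adjusted p of 0.621. In TA the rhythm of Klhl21 had an amplitude of 0.08 in mKO (adjusted p = 0.609) and 0.18 in Ctrl (adjusted p = 0.00753), with an adjusted p of 0.999 for the difference. Among BM3 animals Klhl21 was called in SOL of Ctrl (adjusted p = 0.0296) but not in SOL of mKO (adjusted p = 0.0571) or TA of Ctrl (adjusted p = 0.287).

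The other rhythmic members had smaller amplitudes, and among BM3 animals most of their calls were lost. Klhl24 was called in SOL of mKO (0.11, adjusted p = 0.0134) and of Ctrl (0.13, adjusted p = 0.00298), but among BM3 animals it was not (0.04, adjusted p = 0.821, in mKO, and 0.12, adjusted p = 0.098, in Ctrl). Kbtbd8 was called in SOL of mKO (0.22, peak at ZT19.0, adjusted p = 0.0232) and of Ctrl (0.22, peak at ZT16.6, adjusted p = 0.021), and among BM3 animals in Ctrl (adjusted p = 0.0398) but not in mKO (adjusted p = 0.19). The signal of Kbtbd8 was low, at 4.65 to 5.59 on SOL arrays, against array medians of 6.67 to 6.84. Klhl3 (0.21), Klhl30 (0.21) and Klhl31 (0.10) were called in SOL of Ctrl, with adjusted p of 0.0175, 0.0163 and 0.0335, and of 0.186, 0.707 and 0.522 among BM3 animals. In SOL of mKO their amplitudes were 0.17, 0.13 and 0.05 (adjusted p = 0.0781, 0.214 and 0.479), and no difference between the genotypes was called for them (adjusted p of 0.953 to 0.971). Several of these calls rested on single animals: leaving out the Ctrl animal C of ZT0 brought Klhl30 to an adjusted p of 0.0714, and leaving out any 1 of Ctrl animals A of ZT0, B of ZT12 and C of ZT12 brought Klhl3 to up to 0.0633. Kbtbd8 reached up to 0.0577 without Ctrl animal B of ZT4, A of ZT16 or C of ZT16. Klhl31 was lost without any 1 of 7 Ctrl animals (B of ZT0, all 3 of ZT4, A and B of ZT12, A of ZT16), with adjusted p up to 0.108. In mKO, Kbtbd8 reached 0.0933 without animal B of ZT20 and 0.0522 without animal B of ZT4. Klhl40, Klhl41, Klhl34, Kbtbd12 and Kbtbd13 were not called rhythmic in any of the 4 groups.

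Genes of the ligase that these adaptors serve were examined as well. Of 23 listed genes of the cullin-3 machinery, 21 were measured. In TA 1 was higher and 3 were lower in mKO, which is 19% of those measured, against 14.8% of all genes. In SOL 1 was higher, 4.76% against 7.10% of all genes. Cand2, an exchange factor of cullin ligases found mainly in muscle, rose in both muscles, by 0.16 ± 0.04 in TA (adjusted p = 0.00174) and 0.26 ± 0.04 in SOL (adjusted p = 0.000117). Cul3, the scaffold itself, fell in TA (difference -0.11 ± 0.04, adjusted p = 0.0401), as did Dcun1d1, which promotes attachment of NEDD8 to cullins (-0.19 ± 0.05, adjusted p = 0.00902), and Cops8, a subunit of the COP9 signalosome that removes it (-0.21 ± 0.03, adjusted p = 2.96e-05). Between the muscles 20 of the 21 were called (95.2%, against 56.8% of all genes), 15 higher and 5 lower in TA, among them Cul3 (0.40) and Dcun1d2 (0.98) higher and Uba3 (-0.41) lower. No rhythm of these 21 genes was called in any of the 4 groups with limma (0, 0, 2 and 1 had an unadjusted p under 0.05 in SOL of mKO, SOL of Ctrl, TA of mKO and TA of Ctrl).

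Of 5 listed BTB-Kelch relatives with other names, 4 were measured (Keap1, Enc1, Ivns1abp and Ipp), and 0 were called for genotype in either muscle with limma (0 at an unadjusted p under 0.05). Of 19 listed client and partner genes, 3 were lower in TA of mKO, 15.8% against 14.8% of all genes. In SOL 1 was higher and 1 lower, 10.5% against 7.10%. Both shares are near those of all genes. Pik3r1, the p85 subunit that Kbtbd2 acts on, fell in both, with differences of -0.18 ± 0.05 in TA (adjusted p = 0.0101) and -0.18 ± 0.05 in SOL (adjusted p = 0.0328). Nfe2l2, the client of Keap1, fell in TA (-0.21 ± 0.04, adjusted p = 0.000124), as did Tiam1 (-0.17 ± 0.04, adjusted p = 0.00633). Irs1, an insulin receptor substrate, rose in SOL (0.35 ± 0.06, adjusted p = 0.000122). It alone of the 19 was called for genotype by muscle (adjusted p = 0.0388), 5.26% against 2.71% of all genes. For rhythm, 5 of the 19 were called in SOL of mKO and 4 in SOL of Ctrl, 26.3% and 21.1%, against 5.68% and 6.05% of all genes. In TA 2 were called in mKO and 4 in Ctrl, 10.5% and 21.1%, against 1.76% and 2.70%. A difference in rhythm between genotypes was called for 0 of the 19 in either muscle. The thin filament partners of Klhl40 and Klhl41 were not called for genotype: Neb differed by 0.03 ± 0.02 in TA and 0.04 ± 0.03 in SOL, and Lmod3 by -0.08 ± 0.03 in TA and -0.00043 ± 0.04 in SOL. These are RNA levels, and the proteins of the clients and partners, on which the adaptors act, were not measured.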

How the data were processed

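RNA of 72 muscle samples was measured on 1-colour microarrays. The deposited values are log2 signals per probe set, made by the authors with RMA, per the submitters' processing notes; the sources used here do not give its version. No further scaling was applied. Of 21225 probe sets, 20239 carried 1 gene name and 986 were left out as unnamed. The number of arrays limits the precision.

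Each muscle was fitted with limma 3.58.1 (R 4.3.3), with 1 term per genotype and time, and mKO minus Ctrl was averaged over the 6 times. TA minus SOL, and its difference between genotypes, was fitted on the differences within animals, which the labels link by animal number. The deviations of both muscles of an animal correlated with a median of 0.046 (36 animals). Rhythms were cosine waves of 24 h with moderated F tests. P-values were adjusted by Benjamini-Hochberg over all 20239 genes, with a threshold of 0.05, two-sided. The fits were tested on simulated data with known changes.

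Genes named with full values were the muscle-enriched members, and other members among the 5 smallest p-values of a test. The members and gene lists were chosen with earlier results of these data known. Alternatives were array weights, arrays centred on their medians, the identification series as a term, BM3 animals alone, genes above the median level, 1 term per time, a replicate block, leaving out each animal and, chosen after seeing the data, leaving out ZT20. Labels name separate animals as replicates.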

Additional observations from a re-analysis of the deposited data

Results flagged for a closer look

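The difference between genotypes differed between TA and SOL for 2 members by the test of that difference with limma. For Klhl13 the effect in TA minus that in SOL was -0.339 ± 0.085 (SE, 36 animals, adjusted p = 0.0207), and it was 0.14 ± 0.19 among BM2 and BM2* animals, from ZT8 (1 mKO and 1 Ctrl animal) and ZT12 (3 and 3) alone. For Kbtbd3 it was -0.249 ± 0.067 (adjusted p = 0.0341), and the call was lost with the identification series as a term (adjusted p = 0.113). The signal of Kbtbd3 lay below the array median on every array.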

How the results depend on the processing

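Of the 66 member values called, 16 are amplitudes, which cannot be negative and so cannot change sign. Of the others, 0 changed sign under the alternatives counted here. Among BM2 and BM2* animals, a check over 2 times described with the results, the genotype difference of Klhl34 in TA (-0.37) and the muscle-dependent effect of Klhl13 (0.14) had the opposite sign. All 66 remained called with array weights, 65 with arrays centred on their medians, 60 with the identification series as a term, 56 without ZT20 (chosen after seeing the data) and 48 among BM3 animals, which are fewer. With array weights the counts were 16 for genotype in TA, 4 for genotype by muscle and 5 for rhythm in TA of Ctrl. Of all genes, 26.6%, 5.93% and 3.69% were called in these tests with array weights. With the series as a term the member counts were 0 for genotype by muscle and 2 for rhythm in TA of mKO. Among BM3 animals the member counts were 3 for genotype in SOL and 0 for genotype by muscle. For rhythm they were 2, 4, 2 and 1 in SOL of mKO, SOL of Ctrl, TA of mKO and TA of Ctrl. Of all 20239 genes, 538 were called for genotype in SOL among BM3 animals, against 1436 with all animals. Among genes above the median level rhythm was called for 2 members in TA of mKO and 5 in TA of Ctrl. With 1 term per time it was called for 3 in SOL of mKO, 4 in SOL of Ctrl and 1 in TA of Ctrl. Without ZT20 the counts were 0 for genotype by muscle, 3 for rhythm in SOL of mKO and 5 in SOL of Ctrl. The cause of these moves was not tested. The share of all genes was not taken for the counts given here without one. Moves in those counts are thus not results about the members alone. Leaving out single animals gave 10 to 11 for genotype in TA, 7 in SOL, 31 to 33 between the muscles, 1 to 3 for genotype by muscle, and 4 to 6, 6 to 9, 1 and 2 to 4 for the rhythms in the order above. The labels do not say that replicate letters link animals, so the letters were not taken as pairs. Same-letter pairs correlated above 0.1 in 21 of 36 cases (median 0.153). Both muscles of an animal did so in 11 of 36 (median 0.046). The pairing by animal rests on the labels and not on these correlations. Of 36 mKO arrays, 18 correlated best with the Ctrl array of their own letter, a hint from the data alone. With the letter as a replicate block the counts were 7 for genotype in SOL, 10 in TA, and 5, 9, 1 and 2 for the rhythms. Without the block by animal, 31 members were called between the muscles and 3 for genotype by muscle, with Kbtbd3 no longer called (adjusted p = 0.101).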
